A study of Rattus norvegicus with 12 samples.

Results

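Whole liver RNA of the BA group was set against that of the sham-operated Control group 4 h after partial hepatectomy (PH), in 2 of the 12 columns of an RNA sequencing table of male Sprague Dawley rats aged 4 to 5 months. Control rats had a sham biliary fistula, and rats of the BA and BF groups had a catheter that drained the bile duct, all placed 24 h before PH. Every rat also carried a duodenal catheter and received saline through it, and rats of 1 fistula group received the bile acid taurocholate by that route, so that this group lacked the other constituents of bile. The columns are named here by their titles, BA and BF, because the sources disagree on which fistula group had the infusion. The sample descriptions give the column titled BA as a fistula without bile and the column titled BF as a fistula with bile acid infusion, whereas the study's methods and figures use BA for the infused group. CYP8B1, the sterol 12-alpha-hydroxylase of bile acid synthesis, was at 161.5 RPKM in BA, 164.5 RPKM in Control and 918.5 RPKM in BF at 4 h. CYP7A1, the rate-limiting enzyme of that pathway, was at 1.81, 4.59 and 13.8 RPKM in the same order. BF was also the highest of the 3 groups at the other times, with CYP7A1 at 387 RPKM at 0 h, 136 at 12 h and 334 at 24 h against at most 68.8 RPKM in BA and Control, and with CYP8B1 at 1576, 767 and 1010 RPKM against at most 189.7 RPKM. Groups were not reassigned from these levels, and the fistula columns keep the names of their titles throughout.

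After PH the remaining liver keeps making plasma proteins, glucose and bile while its hepatocytes leave quiescence and prepare to divide. In the first hours it meets a surge of cytokines and of bile acids returning in portal blood, a fall in glucose and an inflow of fatty acids from adipose tissue. Hepatocytes answer with immediate early genes and acute phase proteins, and they normally oxidise fatty acids through mitochondrial and peroxisomal enzymes that the receptor PPAR-alpha controls.

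Values are RPKM, read numbers scaled to transcript length and library size. The authors averaged 2 runs into each column, the first of a single rat and the second of pooled RNA from 3 more. Thus 4 rats stand behind a value, but not necessarily with equal weight. In a plain mean of the runs the single rat would count as much as the 3 pooled rats together. Because the runs were averaged before deposit, the spread between rats is not known, no difference has a replicate check, and none carries a p-value. The number of reads is unknown. Ratios are log2 of BA over Control with 1 RPKM added to both, and they understate differences of weakly expressed genes. Of 14692 genes listed, those whose 12 columns averaged 1 RPKM or more were compared, 8459 in all. The time of 4 h was chosen because it holds the most genes at least 2-fold apart between BA and Control, 616 genes against 340 at 0 h, 145 at 12 h and 173 at 24 h.

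At 4 h, 171 genes (2.02% of those compared) were at least 2-fold higher in BA and 445 genes (5.26%) at least 2-fold lower. The median log2 ratio of all genes compared was -0.22, so a general shift towards lower values ran under these counts. The same shift runs under every count of list members given below. Counts of members at least 2-fold apart are to be read beside these 2.02% and 5.26%. The share of all genes with any lower value was not counted. After each column was centred on its median gene, 253 genes (2.99%) were higher and 268 (3.17%) lower, and the genes on the higher side made up 48.6% of those apart instead of 27.8%. Centring raised every ratio by the same amount. By construction, therefore, all 171 higher genes passed 2-fold on both scales, and the 268 lower genes left after centring were part of the 445. The higher genes had a median of 7.96 RPKM in Control and 29.9 RPKM in BA, the lower genes 25.1 RPKM in Control and 8.98 RPKM in BA. Just inside the 2-fold limit lay FABP2 (1.58 RPKM in Control, 4.17 in BA) and CCDC91 (12.1 in Control, 5.54 in BA). Just outside it lay IL17RA (15.7 in Control, 32.3 in BA) and CPPED1 (36.7 in Control, 17.9 in BA).

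**Figure D1:**
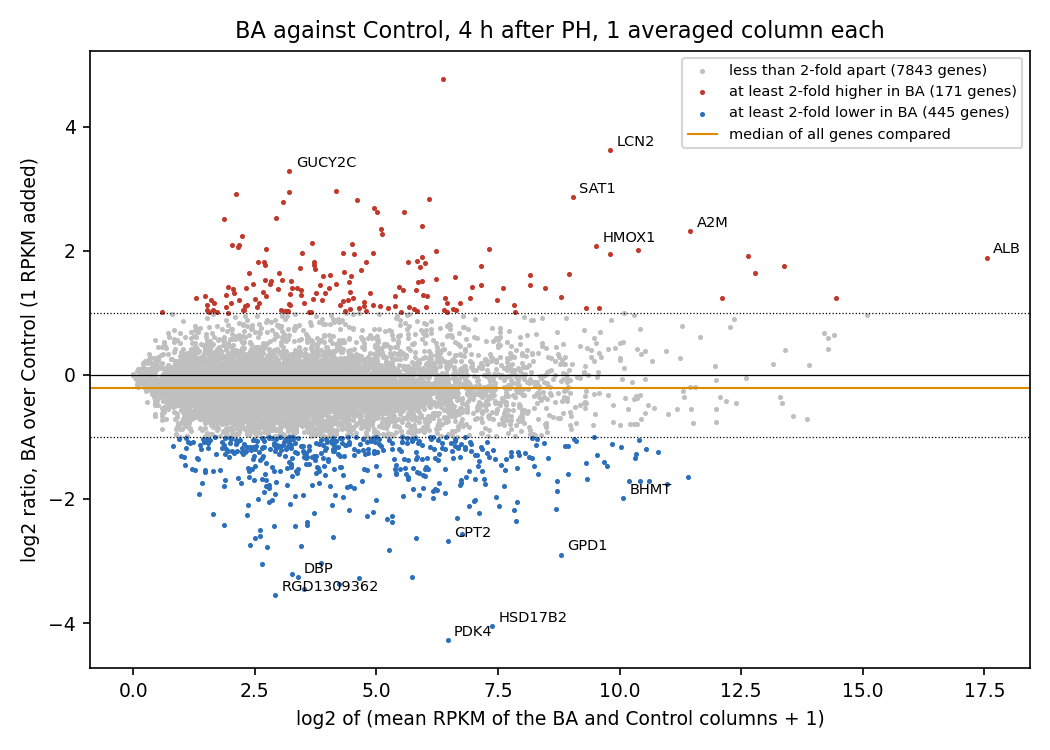
The log2 ratio of BA over Control at 4 h is plotted against the level of each gene over both columns, on a log2 scale with 1 RPKM added. Each point is 1 of 8459 genes, dotted lines mark 2-fold, and the orange line is the median of -0.22. ALB stands at the far right with a ratio of 1.89, LCN2 lies at 3.62, and PDK4 is the lowest point at -4.27.

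The most abundant transcript of both columns was ALB, which encodes serum albumin. Its level was 303637 RPKM in BA and 81796 RPKM in Control, 3.71 times as high. The BF column at 4 h held 78927 RPKM, and over the other 11 columns ALB ran from 41049 RPKM in BA at 12 h to 99928 RPKM in Control at 0 h. The 4 h BA value thus lay above every other column, including those of the same group before PH (87628 RPKM) and at 24 h (62342 RPKM). Whether it was high in both runs or rests on 1 of them, or on an error in the averaged value, cannot be seen from the column, and the sums and shares that follow depend on it.

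Albumin also set the size of the column. All RPKM together summed to 982826 in BA against 732108 in Control, a difference of 250718, and ALB alone differed by 221842. Without ALB the sums were 679188 and 650312. The other 11 columns summed to between 727435 and 785092, and the BA column at 4 h was the only one of the 12 above that range. ALB took 30.9% of the summed RPKM in BA, 11.2% in Control and at most 13.4% in any other column. The median gene was at 8.68 RPKM in BA and 10.3 RPKM in Control, and it was lower in BA at 4 h than in each of the other 11 columns. The part of the ALB level in the ratios of other genes was not tested, and the centred ratio is given for this reason beside the ratio as deposited.

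The abundant secreted protein genes, a list of 137 plasma protein, complement, clotting and alpha-2u-globulin genes of which 117 were found by symbol, took 70.5% of the summed RPKM in BA and 52.1% in Control. The share was 58.8% in BF at 4 h and between 48.1% and 61.7% over the 11 other columns. Without ALB in either sum the shares were 57.3% in BA and 46.1% in Control, and the BA share no longer lay outside the other columns, which ran from 40.1% to 59.4%. The summed level of the list was 1.82 times as high in BA as in Control, and 1.30 times as high without ALB. All genes outside the list together were at 289816 RPKM in BA and 350443 RPKM in Control. The T-kininogen gene KNG1L1, at 10118 and 2665 RPKM, was counted there and not in the list.

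**Figure D2:**
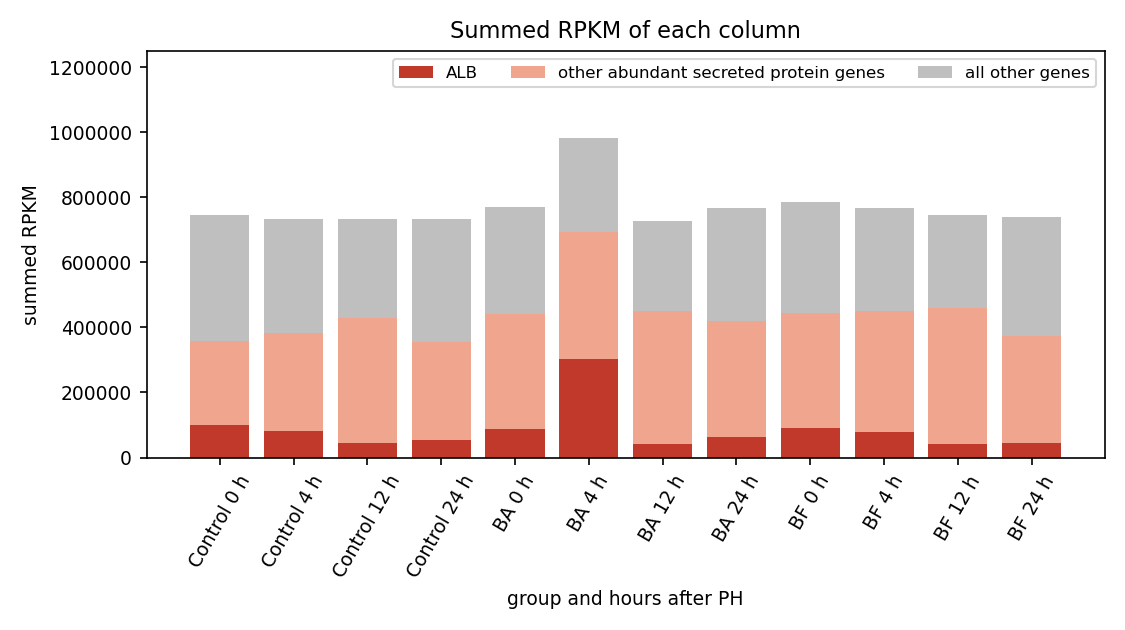
The bars give the summed RPKM of each of the 12 columns, divided into ALB, the other abundant secreted protein genes and all other genes. The BA column at 4 h is the tallest at 982826 RPKM, and ALB, at 303637 RPKM, is the section by which it differs most from Control at 4 h, which sums to 732108 RPKM.

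Single members of the list did not move together. Of its 114 members compared, 12 were at least 2-fold higher and 9 at least 2-fold lower, with a median log2 ratio of 0.06 (0.28 after centring, -0.35 with columns scaled to the same total). Haptoglobin (HP), the binder of free haemoglobin, was at 45927 RPKM in BA and 23519 RPKM in Control. Hemopexin (HPX), the binder of free haem, was at 31719 and 13371 RPKM. The 3 fibrinogen chains differed alike, with FGA at 23125 and 14477 RPKM, FGB at 24197 and 15981 RPKM and FGG at 26687 and 17043 RPKM. C-reactive protein (CRP) at 16078 and 14389 RPKM and the protease inhibitor SERPINA1 at 23051 and 17189 RPKM differed less, and both log2 ratios were negative with columns scaled to the same total. The other direction was taken by transthyretin (TTR), a carrier of thyroid hormone, at 9466 RPKM in BA and 14969 RPKM in Control, and by the alpha-2u-globulin gene LOC298116 at 11286 and 18468 RPKM. Both were lower in BA before PH too, TTR at 9888 against 20517 RPKM and LOC298116 at 10543 against 23256 RPKM. The alpha-2u-globulins are urinary proteins that adult male rats make in the liver. Of the 24 plasma protein genes compared that fall in inflammation, 20 were lower in BA. Their median was -0.29 (-0.07 after centring) beside -0.22 for all genes compared, and ALB was the only 1 that was at least 2-fold higher. At 0 h the median of this list was -0.38, beside -0.097 for all genes compared. MUG1, a broad protease inhibitor, was at 303 RPKM in BA and 671 in Control, and IGFALS, which carries insulin-like growth factors, at 35.7 and 73.6 RPKM. At 0 h MUG1 was at 501 against 1128 RPKM and IGFALS at 155 against 226 RPKM.

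Acute phase genes were higher in BA, and the difference was already present before PH. Of 32 acute phase genes compared, 30 were higher in BA and 11 were at least 2-fold higher, with a median log2 ratio of 0.66 at 4 h (0.88 after centring) and of 1.65 at 0 h, where 22 were at least 2-fold higher. At 12 h and 24 h the medians were 0.00039 and 0.32. LCN2, or lipocalin 2, which binds bacterial iron carriers, was at 1660 RPKM in BA and 134 RPKM in Control at 4 h, and at 1388 and 3.03 RPKM before PH. A2M, the protease inhibitor alpha-2-macroglobulin, was at 4688 and 940 RPKM at 4 h and at 1892 and 7.61 RPKM before PH. ORM1, or orosomucoid, was at 16559 and 4907 RPKM at 4 h. KNG1 (10716 and 3411 RPKM) and the fibrinogen-like FGL1 (2142 and 527 RPKM) differed in the same direction. So did the T-kininogen gene KNG1L1 (10118 and 2665 RPKM), which was not among the 32 genes of the list. The BF column at 4 h held 1028 RPKM of LCN2, 3486 of A2M and 18532 of ORM1, all nearer to BA than to Control. In Control, LCN2 reached 2220 RPKM at 12 h and 1852 RPKM at 24 h.

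Signalling genes upstream of the acute phase showed fewer differences. The 21 genes of IL-6 and STAT3 signalling had a median of -0.11 (0.11 after centring), with 1 member at least 2-fold higher and 1 lower. OSMR, the higher member, a receptor subunit for oncostatin M, was at 23.8 RPKM in BA and 7.15 RPKM in Control. Of the 49 complement and coagulation factor genes compared, 37 were higher in BA as deposited and 5 at least 2-fold so, with a median of 0.27 (0.49 after centring) that became -0.14 with columns scaled to the same total. Complement component C6 was at 169 and 71.2 RPKM.

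Before PH, 158 genes (1.87%) were at least 2-fold higher in BA than in Control and 182 genes (2.15%) at least 2-fold lower, in columns that share no rat with those of 4 h. Of the 171 genes higher at 4 h, 54 were also at least 2-fold higher at 0 h, which is 31.6% of the 4 h genes and 34.2% of the 0 h genes. Of the 445 genes lower at 4 h, 101 were also at least 2-fold lower at 0 h, or 22.7% of the 4 h genes and 55.5% of the 0 h genes. Opposite 2-fold differences at 0 h were seen for 1 of the higher genes, REG3G, and 1 of the lower genes, SPSB4, both named after their values were seen. REG3G was at 1.03 RPKM in BA and 0 in Control at 4 h and at 1.37 and 4.82 RPKM before PH, and SPSB4 at 9.95 and 23.02 RPKM and at 9.78 and 2.98 RPKM. At 12 h and 24 h, 11 and 18 of the 171 higher genes and 24 and 47 of the 445 lower genes were at least 2-fold apart in the same direction, where 0.591% and 0.721% of all genes compared were higher and 1.12% and 1.32% lower. Opposite 2-fold differences were as frequent at 12 h for the higher genes, with 12 of 171, and were found for 4 of them at 24 h and for 19 and 15 of the 445 lower genes at 12 h and 24 h.

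**Figure D3:**
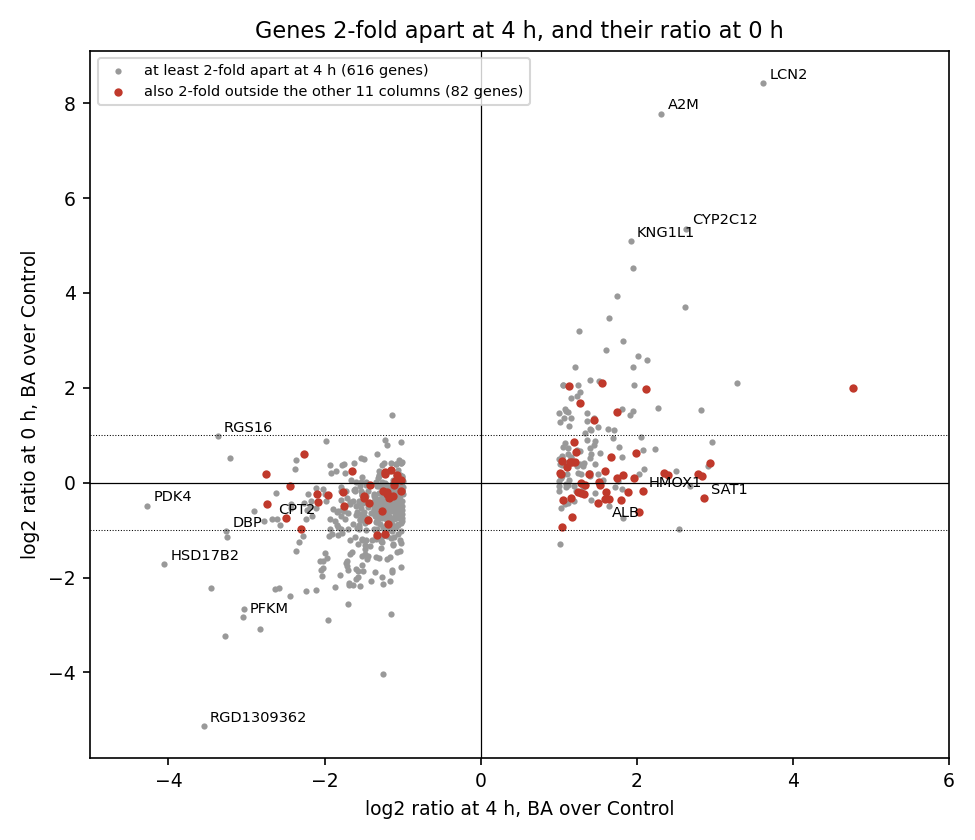
The log2 ratio of BA over Control at 0 h (vertical) is plotted against that at 4 h (horizontal) for the 616 genes at least 2-fold apart at 4 h, with dotted lines at 2-fold for 0 h. Red points are the 82 genes for which the BA column at 4 h also lay at least 2-fold outside all 11 other columns. LCN2 (8.43 at 0 h) and A2M (7.78) sit far above the line of no difference, SAT1 (-0.33) and HMOX1 (-0.17) close to it.

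In a subset of genes the BA column at 4 h lay apart from the whole table. For 48 genes the BA value at 4 h was at least 2-fold above each of the other 11 columns (69 after centring), and for 34 it was at least 2-fold below each of them (15 after centring). As deposited, the same counts were at most 20 above and 28 below in any other column, both in Control at 0 h, and 15 above and 2 below in Control at 4 h. After centring, Control at 0 h had 14 genes above and 32 below, so that on the lower side it then exceeded the BA column at 4 h. Because Control at 4 h is among those 11 columns, the 48 belong to the 171 higher genes and the 34 to the 445 lower genes by definition. At 0 h, 7 of the 48 and 2 of the 34 were already at least 2-fold apart from Control in the same direction.

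HMOX1, the haem-degrading enzyme haem oxygenase 1, was at 1182 RPKM in BA, 279 RPKM in Control and 158 RPKM in BF. SAT1, which acetylates spermidine and spermine and starts their breakdown, was at 924, 126 and 95.8 RPKM in the same order. For both genes BA stood alone, since Control and BF lay on the same side of it at 4 h and so did every other column.

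Further genes had the same profile. ARRDC4, an arrestin family member, was at 56.0 RPKM in BA, 10.2 in Control and 7.62 in BF. The neutral amino acid transporter SLC1A4 was at 102 RPKM in BA, 18.5 in Control and 25.9 in BF, and ZFYVE27, or protrudin, at 118, 15.7 and 25.8 RPKM. BTG2, an antiproliferative immediate early gene, was at 217, 63.8 and 48.8 RPKM, and IL1RN, which encodes the antagonist of the interleukin 1 receptor, at 416, 151 and 109 RPKM. These last genes were also higher in BA before PH, BTG2 at 18.3 against 5.89 RPKM in Control and IL1RN at 33.4 against 12.7 RPKM. Chosen after their values were seen, the glucose transporter SLC2A1 was at 9.69 RPKM in BA and 1.62 in Control, the mTORC1 inhibitor DDIT4 at 21.6 and 6.48 RPKM, the mitochondrial folate enzyme MTHFD2 at 13.7 and 1.13 RPKM, the ephrin ligand EFNA1 at 119 and 29.1 RPKM and the TWEAK receptor TNFRSF12A at 58.3 and 23.6 RPKM.

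Other genes with large ratios did not pass this limit, because at least 1 other column came near to or above BA at 4 h. GUCY2C, the guanylate cyclase C receptor, was at 15.8 RPKM in BA and 0.73 in Control at 4 h and reached 12.3 RPKM in BF at 12 h. PDIA5, a protein disulfide isomerase, was at 41.6 and 5.01 RPKM at 4 h and at 27.2 and 8.8 RPKM before PH. CYP2C12, a steroid hydroxylase typical of female rat liver, was at 80.3 RPKM in BA, 12.2 in Control and 549 in BF at 4 h, and at 463 RPKM in BA and 10.3 in Control at 0 h. The trypsin inhibitor SPINK3 was at 54.3 and 7.96 RPKM at 4 h and at 151 and 10.7 RPKM before PH. FAM176A (52.8 and 7.35 RPKM), RGD1308694 (12.1 and 1.26 RPKM) and the dicarboxylate transporter SLC13A3 (56.8 and 10.98 RPKM) also had large ratios.

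**Figure D4:**
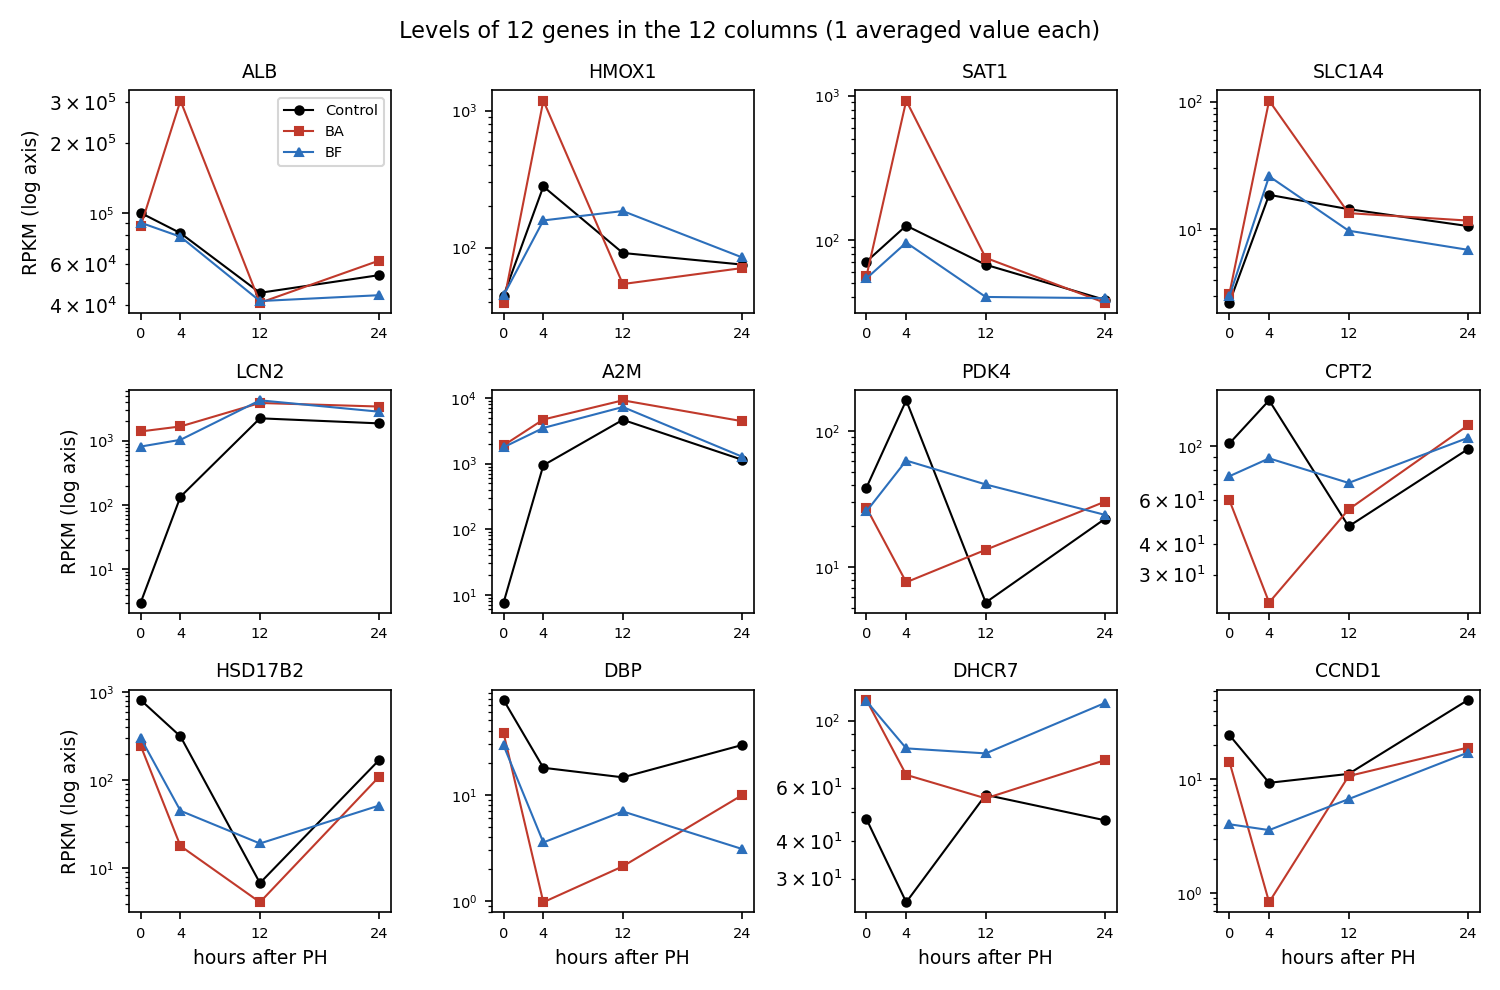
Levels of 12 genes are given in RPKM on log axes at 0, 4, 12 and 24 h for Control (black circles), BA (red squares) and BF (blue triangles), 1 averaged value per point and without error bars. ALB, HMOX1, SAT1 and SLC1A4 peak in BA at 4 h, LCN2 and A2M are high in both fistula groups from 0 h, and PDK4, CPT2, DBP and CCND1 are lowest in BA at 4 h among the groups at that time.

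Genes of fatty acid oxidation and ketone synthesis had the lowest median of the 31 gene lists. All 35 members compared were lower in BA at 4 h, and 19 of them at least 2-fold (13 after centring), against 5.26% of all genes compared. The median log2 ratio was -1.005 (-0.78 after centring), whereas it was -0.28 at 0 h, 0.28 at 12 h and 0.50 at 24 h. In BF at 4 h, against the same Control column, the median was -0.27 and 4 members were at least 2-fold lower, where 3.16% of all genes compared were. PDK4, the kinase that turns off pyruvate dehydrogenase and so spares glucose, was at 7.72 RPKM in BA, 167 RPKM in Control and 60.4 RPKM in BF. It was the gene with the lowest ratio of all, -4.27, and Control at 4 h was the highest of its 12 columns, the other Control values being 38.3 RPKM at 0 h, 5.48 at 12 h and 22.5 at 24 h.

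The carnitine shuttle was lower at several steps. CPT2, the inner membrane carnitine palmitoyltransferase, was at 23.1 RPKM in BA, 153 in Control and 88.9 in BF. CRAT, carnitine acetyltransferase, was at 1.82, 18.0 and 12.5 RPKM in the same order. CPT1A, the outer membrane enzyme that sets the rate of entry into mitochondria, was at 44.5 RPKM in BA and 195 RPKM in Control, and was chosen after its value was seen. For CPT2 and CRAT the BA value at 4 h was the lowest of the 12 columns. ACOT4, a peroxisomal acyl-CoA thioesterase, was at 1.33 RPKM in BA and 11.6 RPKM in Control. PEX11A, a factor of peroxisome division, was at 14.6 RPKM in BA, 95.6 in Control and 8.87 in BF. For PEX11A the Control value at 4 h was the highest of the 12 columns, as all others were at 21.57 RPKM or less. The lipid droplet protein ADFP (81.7 and 373 RPKM) and the transcription factor CREB3L3 (67.9 and 233 RPKM), also named after their values were seen, differed in the same direction. CREB3L3 was at 178.6 RPKM or more in each of the other 11 columns.

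Enzymes that make fatty acids and triglycerides were lower as well, by fewer members. Of 20 compared, 13 were lower, 5 at least 2-fold lower (3 after centring) and none 2-fold higher, with a median of -0.60 (-0.38 after centring). ELOVL6, which elongates palmitate, was at 0.88 RPKM in BA and 16.5 RPKM in Control, and ACLY, which makes cytosolic acetyl-CoA from citrate, at 32.0 and 119 RPKM. FADS2, the delta-6 desaturase, was at 68.3 and 157 RPKM, and DGAT2, which completes triglycerides, at 55.4 and 131 RPKM. For ELOVL6 the Control value at 4 h was the highest of the 12 columns, as all others were at 10.93 RPKM or less.

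Cholesterol synthesis genes differed the other way. Of 27 compared, 23 were higher in BA, 7 at least 2-fold (14 after centring), and none was 2-fold lower, with a median of 0.85 (1.07 after centring), beside -0.22 for all genes compared. The median was 1.29 at 0 h, with 16 members at least 2-fold higher, and 0.84 in BF at 4 h against the same Control column. IDI1, an isomerase of the isoprenoid pathway, was at 80.0 and 30.4 RPKM, DHCR7, a late enzyme of cholesterol synthesis, at 66.2 and 25.1 RPKM, and the sterol oxidase SC4MOL at 92.6 and 37.7 RPKM. Both columns lay below their own 0 h values for IDI1, DHCR7 and SC4MOL.

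Bile acid synthesis genes differed less between BA and Control at 4 h than the genes on a list of bile acid and lipid transporters. No member of the 15 bile acid synthesis genes compared was 2-fold apart, and their median was -0.17 (0.05 after centring). CYP7B1, of the alternative pathway, was at 17.4 and 12.4 RPKM, CYP27A1 at 171 and 233 RPKM and HSD17B4 at 190 and 319 RPKM. CYP7A1 was lower in all 3 groups at 4 h than before PH, and its log2 ratio of -0.99 (-0.77 after centring) rests on values of a few RPKM. All 15 bile acid and lipid transporters compared were lower in BA, 5 of them at least 2-fold (4 after centring). Their median was -0.72 (-0.50 after centring) at 4 h and -0.13 at 0 h. Some lay less far below 0 than the -0.22 of all genes compared, SLC10A1 at -0.18 and SLC22A7 at -0.02 among them. ABCG5 and ABCG8, which together export sterols, were at 2.15 and 0.41 RPKM in BA against 24.9 and 3.18 RPKM in Control, and at 4.00 and 0.70 RPKM against 30.7 and 5.17 RPKM at 0 h. SLCO1A5, an uptake carrier, was at 2.16 and 9.17 RPKM, and the drug exporter ABCB1B at 1.25 and 4.63 RPKM. The remaining member at least 2-fold lower was ABCB4, with a log2 ratio of -1.06. ABCB11, also on this list, was not among the members compared.

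Among the bile acid sensing receptors and their partners, 14 of 17 were lower and 3 at least 2-fold lower (2 after centring), with a median of -0.28 (-0.06 after centring). NR0B2, or SHP, the repressor induced through the bile acid receptor FXR, was at 1.85 RPKM in BA, 10.6 RPKM in Control and 1.45 RPKM in BF at 4 h. The xenobiotic receptors NR1I3 (1.70, 10.2 and 2.37 RPKM in the same order) and NR1I2 (50.7, 118 and 97.6 RPKM) were lower in BA than in Control. NR0B2 and NR1I3 were also lower at 0 h, at 12.7 against 42.3 RPKM and at 24.0 against 77.8 RPKM.

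Drug-metabolising genes were lower in BA, and most of this was present before PH. Of the 30 genes on the cytochrome P450 list compared, which holds their regulators too, 12 were at least 2-fold lower and 1 at least 2-fold higher (10 and 1 after centring), with a median of -0.69 at 4 h and -0.66 at 0 h. CYP3A18 was at 195 RPKM in BA and 639 RPKM in Control, CYP2B1 at 0.73 and 9.41 RPKM, and CYP2C12, above, was the exception. Of 35 conjugation enzymes 11 were at least 2-fold lower and none 2-fold higher (9 and none after centring), with medians of -0.70 at 4 h and -0.56 at 0 h. The glutathione transferases GSTM2 (179 and 655 RPKM), GSTT3 (47.4 and 226 RPKM) and GSTA3 (244 and 742 RPKM) and the soluble epoxide hydrolase EPHX2 (2.85 and 18.9 RPKM) had the largest ratios. EPHX2 differed from the others in that it was not lower at 0 h (30.9 and 21.7 RPKM). HSD17B2, which inactivates oestradiol and testosterone, was at 18.0 RPKM in BA, 314 RPKM in Control and 45.0 RPKM in BF at 4 h, and between 4.14 and 19.2 RPKM in the 3 groups at 12 h.

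Of 30 NRF2 antioxidant genes, 24 were lower and 6 at least 2-fold lower, while 3 were at least 2-fold higher, with a median of -0.47 (-0.25 after centring). The 3 higher genes were HMOX1, already described, the quinone reductase NQO1 (28.6 and 13.2 RPKM) and AKR1B7. The glutathione synthesis subunit GCLM was at 15.99 RPKM in BA and 46.1 in Control, and the aflatoxin aldehyde reductase AKR7A3 at 8.48 and 66.2 RPKM. AKR1B7, an aldo-keto reductase, was at 5.59 and 0.55 RPKM, and at 38.6 RPKM in BF. Iron-handling genes held 4 members at least 2-fold higher among 24, namely LCN2, HPX, HMOX1 and the ferrireductase STEAP4 (757 and 243 RPKM). None was 2-fold lower, and the median was -0.12 (0.11 after centring).

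Genes of glucose metabolism were apart in both directions, with 4 of 35 at least 2-fold higher and 12 at least 2-fold lower (4 and 11 after centring) and a median of -0.62 (-0.40 after centring). PFKFB1, the enzyme that makes and removes fructose 2,6-bisphosphate, was at 11.4 RPKM in BA and 61.4 RPKM in Control, and PPP1R3C, which directs phosphatase to glycogen, at 12.7 and 65.0 RPKM. GPD1, which links glycolysis to glycerol phosphate, was at 105 RPKM in BA, 787 in Control and 135 in BF, where Control at 4 h was the highest of the 12 columns. PFKM, the muscle type of phosphofructokinase, was at 0.35 and 10.1 RPKM at 4 h and at 1.16 and 14.5 RPKM before PH. Chosen after its value was seen, the glucose-6-phosphatase G6PC was at 29.4 RPKM in BA, 92.5 in Control and 224 in BF. The higher genes included SLC2A1, the mitochondrial PCK2 (19.5 and 5.27 RPKM) and ALDOA, all of which fell outside the rule for named genes.

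Amino acid breakdown and urea cycle genes were lower for 43 of 48 members, 14 of them at least 2-fold (8 after centring) and 1 at least 2-fold higher, with a median of -0.67 (-0.45 after centring) and of -0.60 at 0 h. CTH, which makes cysteine from cystathionine, was at 75.6 RPKM in BA and 392.4 RPKM in Control, and BHMT, which remethylates homocysteine, at 435 and 1728 RPKM. The histidine enzyme HAL was at 49.7 RPKM in BA, 163.6 in Control and 356 in BF, so that both fistula groups lay on opposite sides of Control. PRODH, proline dehydrogenase, was at 19.9 and 62.3 RPKM. The exception was the glyoxylate transaminase AGXT, named for that reason, at 281 and 106 RPKM.

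The 33 genes of the ER stress and ATF4 response had a median of 0.32 (0.54 after centring, -0.11 with columns scaled to the same total), with 26 higher in BA as deposited, 4 at least 2-fold higher and 2 at least 2-fold lower (7 and 1 after centring). The amino acid synthesis enzymes PSAT1 (9.13 RPKM in BA, 1.98 in Control) and ASNS (11.4 and 3.30 RPKM) and DERL3, a part of ER-associated degradation (19.6 and 4.84 RPKM), were on the higher side, and HERPUD1, of the same degradation pathway, was lower at 46.7 and 163 RPKM. RefSeq promoter windows of the GRCr8 assembly were matched by symbol for 28 of the 33 genes, and the 250 bases before the start were searched on both strands for the ER stress response element, CCAAT, any 9 bases, CCACG. It was present for 7 of the 28 genes (25.0%), against 0.225% of the 5788 genes compared that had a window. The 7 genes had a median log2 ratio of 0.48 and the other 21 of 0.30. The windows of the 2 genes of largest ratio among the 7, DERL3 (log2 ratio 1.82, chr20:12766571-12766649, minus strand) and CRELD2 (log2 ratio 0.96, chr7:121789209-121789287, plus strand), are shown with the match in capitals, here read on the opposite strand.
DERL3: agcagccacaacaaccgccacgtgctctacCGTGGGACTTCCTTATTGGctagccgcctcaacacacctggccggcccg
CRELD2: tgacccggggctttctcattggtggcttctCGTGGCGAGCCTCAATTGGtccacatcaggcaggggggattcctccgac
A match describes the letters of the window and not a bound site. CRELD2, an ER chaperone partner chosen by this search, was at 64.7 RPKM in BA, 32.7 in Control and 79.6 in BF.

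Interferon response genes were lower in BA. Of 35 compared, 30 were lower, 8 at least 2-fold lower (5 after centring) and none 2-fold higher. Among all genes compared, 5.26% were at least 2-fold lower (3.17% after centring) and 2.02% at least 2-fold higher. The list median was -0.62 at 4 h (-0.39 after centring), beside -0.22 for all genes compared, and -0.18 at 0 h. In BF at 4 h, against the same Control column, the list median was -0.38. There 7 members were at least 2-fold lower, where 3.16% of all genes compared were. OAS1A, a sensor of double-stranded RNA, was at 0.78 RPKM in BA, 4.16 in Control and 1.33 in BF. MX2 (1.63, 6.73 and 2.83 RPKM), IFI35 (5.48, 15.3 and 11.6 RPKM) and the GTPase IGTP (9.97, 26.3 and 15.98 RPKM) were ordered in the same way, with BA lowest and Control highest. The 250 bases before the start were found in RefSeq for 29 of the 35 genes and searched on both strands for GAAA, any 2 bases, GAAA, the core of the interferon-stimulated response element. The letters were present for 15 of 29 genes (51.7%), against 2.99% of the 5788 genes compared that had a window. The median log2 ratio was -0.62 both for the 15 genes with the letters and for the 14 without them. The windows of the 3 genes of largest ratio among the 15 are shown to let the shared element be seen, OAS1A (chr12:41330395-41330465, plus strand), IGTP (chr10:42874914-42874983, plus strand) and IFIH1 (chr3:67683988-67684057, minus strand), with matches in capitals.
OAS1A: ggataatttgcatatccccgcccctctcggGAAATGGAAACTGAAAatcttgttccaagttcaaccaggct
IGTP: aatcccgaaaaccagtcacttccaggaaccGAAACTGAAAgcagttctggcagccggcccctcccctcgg
IFIH1: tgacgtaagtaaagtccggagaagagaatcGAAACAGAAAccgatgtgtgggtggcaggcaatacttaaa
OAS1A holds 2 overlapping matches. IFIH1, a cytosolic RNA sensor chosen by this search, was at 9.53 RPKM in BA, 23.0 in Control and 11.8 in BF.

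Of 18 genes on the circadian clock list compared, 13 were lower in BA and 5 higher. At least 2-fold apart were 5 lower genes and 1 higher gene (5 and 2 after centring). The median was -0.80 (-0.58 after centring) at 4 h and -0.12 at 0 h. CYP7A1, TSC22D3 and FKBP5, which are on other lists too, were among the lower members. DBP, an output transcription factor of the clock, was at 0.98 RPKM in BA, 17.9 in Control and 3.57 in BF. Its relative TEF was at 3.08, 12.9 and 6.96 RPKM, the core clock gene PER3 at 0.64, 4.67 and 1.40 RPKM and the deubiquitinase USP2 at 0.38, 8.19 and 2.32 RPKM. All 4 had BF between BA and Control. The 1 gene at least 2-fold higher as deposited was the nuclear receptor RORA, at 6.93, 2.4 and 3.38 RPKM. The other higher members were ARNTL (log2 ratio 0.99), BHLHE40 (0.59), NFIL3 (0.52) and PER1 (0.34), so the list did not move in 1 direction. The clock hour at which livers were taken is not given in the sources used here.

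Among regulators of growth, differences were scattered. Of 42 immediate early genes compared, 1 was at least 2-fold higher and 6 at least 2-fold lower (5 and 1 after centring), with a median of -0.04 (0.19 after centring). BTG2 was the higher gene. CYR61, a matricellular protein, was at 2.82 and 9.72 RPKM, the pseudokinase TRIB1 at 12.0 and 27.4 RPKM and the kinase PLK3 at 2.14 and 6 RPKM. Of 31 cell cycle genes, 1 was at least 2-fold higher and 2 at least 2-fold lower (2 and 1 after centring), with a median of -0.17 (0.05 after centring). CCND1, or cyclin D1, which drives entry into the cell cycle, was at 0.83 RPKM in BA, 9.33 in Control and 3.58 in BF at 4 h, below its level in each of the other 11 columns. GADD45A, a growth arrest gene, was at 36.7 and 78.1 RPKM, and CCNG1, or cyclin G1, at 66.9 and 33.4 RPKM with a log2 ratio of 0.98 (1.20 after centring). Of 25 growth factor genes, 1 was at least 2-fold higher and 3 at least 2-fold lower, with a median of -0.04 (0.18 after centring). Those 3 were the hepatic activin subunit INHBE (23.2 and 75.2 RPKM), the receptor ERBB3 (13.8 and 33.7 RPKM) and the hormone FGF21 (2.07 and 5.64 RPKM).

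The genes of 3 large cellular machines showed no 2-fold difference as deposited or after centring. The 55 ribosomal protein genes compared had a median of 0.07 (0.29 after centring, -0.35 with columns scaled to the same total) and the 29 ribosome biogenesis genes of 0.03 (0.25 and -0.38 in the same way), with RPS29 at 285 and 222 RPKM and LYAR at 13.5 and 10.04 RPKM. Of 57 oxidative phosphorylation genes 55 were lower in BA, with a median of -0.38 (-0.15 after centring) beside -0.22 for all genes compared. Among them NDUFS7 was at 47.1 and 82.7 RPKM. Heat shock chaperones were lower for 21 of 23 members, with a median of -0.32 (-0.10 after centring). At least 2-fold lower were 2 of them (none after centring), DNAJA1 at 76.7 and 163.9 RPKM and HSPB1 at 6.64 and 15.9 RPKM. Chemokine and cytokine genes held 1 of 25 at least 2-fold higher (IL1RN), with a median of -0.37 (-0.15 after centring). Extracellular matrix and cytoskeleton genes held 2 of 40 at least 2-fold higher, tubulin TUBB6 (88.7 and 24.3 RPKM) and keratin KRT8 (128 and 60.6 RPKM), and none 2-fold lower. Their median was 0.09 (0.31 after centring, -0.26 with columns scaled to the same total). Hepatocyte transcription factors held 4 of 25 at least 2-fold lower and none 2-fold higher (2 and none after centring). Their median was -0.29 (-0.07 after centring), and CEBPB was at 66.2 and 145 RPKM. Of 27 glucocorticoid-responsive genes 2 were at least 2-fold higher and 2 at least 2-fold lower, with a median of -0.24 (-0.02 after centring). The lipase inhibitor ANGPTL4 was at 27.9 and 113 RPKM.

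**Figure D5:**
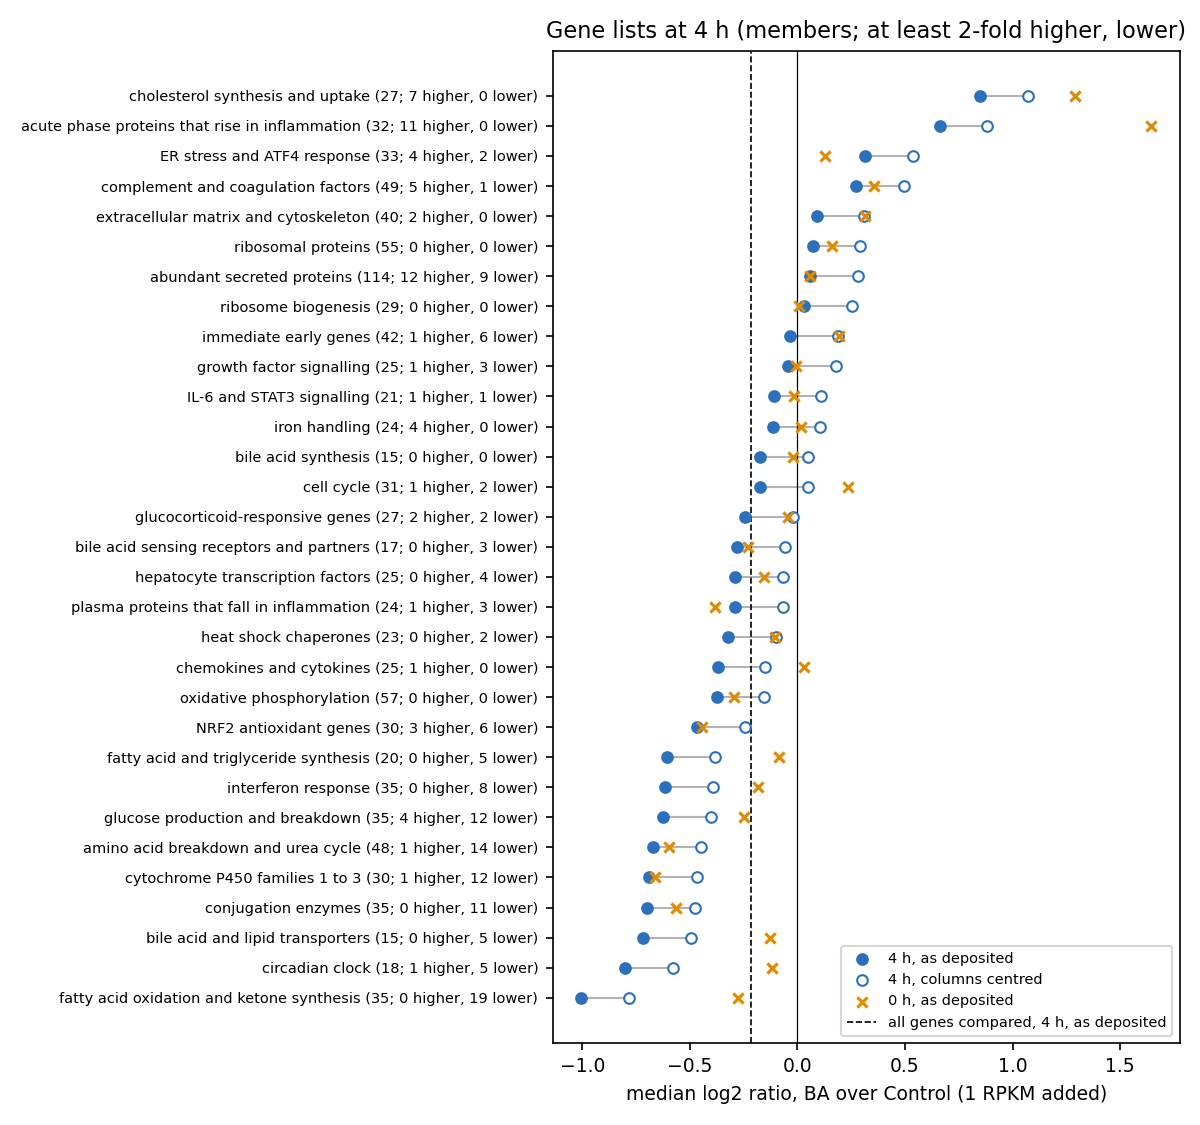
The median log2 ratio of BA over Control is given for each of 31 gene lists at 4 h as deposited (filled circles), at 4 h with centred columns (open circles) and at 0 h as deposited (crosses), and each label gives the members compared and how many were at least 2-fold higher or lower at 4 h. The dashed line is the median of all genes compared, -0.22. Cholesterol synthesis and acute phase genes stand highest at 0.85 and 0.66, with larger medians still at 0 h, and fatty acid oxidation genes lowest at -1.005, with -0.28 at 0 h.

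Of the 15 lowest genes that averaged 5 RPKM or more, those not yet described were RESP18 (0.91 RPKM in BA, 19.9 in Control), RGS16, a regulator of G protein signalling (2.33 and 33.4 RPKM), INMT, an indole N-methyltransferase (3.71 and 44.6 RPKM), the zinc finger gene ZFP354A (9.08 and 94.99 RPKM) and RGD1309362 (0.19 and 12.9 RPKM). At 4 h RGS16 and ZFP354A were higher in Control, at 33.4 and 94.99 RPKM, than in BA and BF. For ZFP354A this Control value was the highest of the 12 columns, whereas RGS16 reached 61.5 RPKM in BF at 12 h. INMT and RGD1309362 were already lower at 0 h, at 9.01 against 92.7 RPKM and at 0.51 against 51.6 RPKM.

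Whole liver holds more than hepatocytes, and in such bulk RNA fewer cells of a type cannot be told apart from less RNA per cell. No marker of cholangiocytes, macrophages, neutrophils, lymphocytes, stellate cells, endothelium or red cells was 2-fold apart between BA and Control as deposited, and after centring the cholangiocyte marker SPP1 (5.92 and 2.96 RPKM) and the neutrophil marker S100A8 (24.9 and 13.8 RPKM) were. The 15 macrophage markers summed to 758 RPKM in BA and 651 RPKM in Control, and the 11 columns other than BA at 4 h ran from 505 to 714 RPKM. The 14 markers found for neutrophils, cells that also make LCN2, summed to 61.8 and 44.0 RPKM, with 4 of them at a mean of 1 RPKM or more. Endothelial markers summed to 77.1 and 95.03 RPKM and those of cholangiocytes to 43.8 and 40.7 RPKM. Of 5 intestinal epithelium markers compared, FABP2 (4.17 and 1.58 RPKM) was at least 2-fold higher. APOA4 (349 and 713 RPKM), which is on the plasma protein lists too, was at least 2-fold lower as deposited but not after centring. Of 6 pancreatic acinar markers compared, SPINK3 was the only 1 that was 2-fold apart, while CTRB1 and PRSS1, which define acinar cells, were at 0.02 and 0 RPKM in BA and at 0.07 and 0 RPKM in Control. Of 11 hepatocyte markers ALB was at least 2-fold higher and CYP2E1 at least 2-fold lower (726 and 1833 RPKM), so that the hepatocyte markers did not differ in 1 direction.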

How the data were processed

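Poly(A) RNA of whole rat liver was sequenced as single reads of 50 cycles. The submitters' processing notes name CASAVA, Bowtie 0.12.2 and the builds rn4 and mm8 with no role; the counter, annotation and weighting of runs are not given in the sources used here. The authors deposited 1 table of RPKM with 2 decimals, each of its 12 columns the mean of 2 runs. How reads of near-identical copies were counted is not stated, so values of KNG1 and KNG1L1, alpha-2u-globulin, MUG1, CYP2, CYP3A, GST, ACOT and OAS genes are uncertain.

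Ratios were log2 with 1 RPKM added; a gene was called apart at a log2 ratio of 1 in size, without a test. One gene without values was left out. Columns were centred on the median log2 value of the 8459 genes compared. Named were the 15 highest and 15 lowest genes averaging 5 RPKM or more that passed on both scales, the 8 largest RPKM differences, the 10 most abundant secreted protein genes, the 4 largest ratios of each list, the markers, and CYP7A1, CYP8B1 and NR0B2; some genes so selected are not reported here. The comparison, lists and markers were chosen with earlier results of these data known. The counting step was run on simulated data with planted differences well above 2-fold. That run checks the counting only and not how reliable the counts of these columns are. Promoter windows came from RefSeq (GRCr8), a build other than those of the notes, and were used by symbol only. Python 3.11.15, numpy 2.4.6, pandas 2.3.3 and matplotlib 3.10.9 were used.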

Additional observations from a re-analysis of the deposited data

How the results depend on the processing

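The settings were computed for 31 list medians, 132 single genes, the counts and the shares. Results with no replicate spread were taken as moved when they changed by over 1.5 times. The 171 higher and 445 lower genes became 99 and 240 with 5 RPKM added and 85 and 1183 with columns scaled to the same total, which puts ALB into the scaling. Scaled to the same total outside the secreted protein list they were 269 and 259. With 0.1 RPKM added the lower genes were 691, and after centring 268. With the group names exchanged, so that the column titled BF stands for BA, they were 101 and 267. Scaling to the same total without ALB, chosen after seeing the data, gave 152 and 519. Without the acute phase proteins the secreted share was 43.5% in BA and 30.9% in Control. The genes 2-fold outside all other columns, also computed after seeing the data, were 23 and 6 with 5 RPKM added and 56 and 129 with 0.1 RPKM. Exchanging the group names turned the direction of 19 of the single genes, of which 12 had been at least 2-fold apart, with log2 ratios of -0.052 for ALB, -0.37 for ARRDC4, -0.38 for BTG2, 0.29 for CYR61, 0.79 for EPHX2, 1.12 for HAL, -0.82 for HMOX1, -0.46 for IL1RN, 0.55 for INHBE, -0.22 for PSAT1, -0.39 for SAT1 and -0.075 for TUBB6. No other setting turned a gene that was 2-fold apart. Centring changed the sign of 6 list medians, given beside each list. Scaling to the same total turned 6 others from higher to lower, namely secreted proteins, complement and coagulation factors, the ER stress response, ribosomal proteins, ribosome biogenesis, and matrix and cytoskeleton. Scaling to the same total outside the secreted protein list turned 6 from lower to higher, 5 of them also turned by centring and the other the glucocorticoid-responsive genes (0.013). The exchange turned bile acid synthesis (0.036) and ribosome biogenesis (-0.048), and dropping the filter turned the immediate early genes (0.013). No list median moved by over 1.5 times except that of fatty acid oxidation, -0.27 under the exchange against -1.005. No paired analysis was possible because the comparison at 4 h holds 1 averaged column a group, and no replicate could be left out.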
